A study of Mus musculus with 5 samples.

Results

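The Hox cluster genes encode homeodomain transcription factors, and they were read here in Neuro2A, a mouse neuroblastoma cell line. All probe sets whose platform annotation gives a single symbol of the form Hoxa, Hoxb, Hoxc or Hoxd with a number were taken, which gave 48 of 45037 probe sets, for 33 genes. By cluster these were 16 probe sets of HoxA, 11 of HoxB, 11 of HoxC and 10 of HoxD. A RefSeq gene table of assembly GRCm38.p6 lists 39 such genes, and the other 6 had no member probe set here. RNA from 5 lines was hybridised to 1 Affymetrix array each. The control arm held 3 lines, namely untransfected parental cells, cells with an empty vector and cells with a vector against EGFP. The knockdown arm held 2 lines, each transfected with its own vector against KDM7. The parental line carries no vector, so a difference between the arms also holds any effect of a vector, which was not tested apart. All 5 share the Neuro2A background, each arm's lines serve as its replicates, and the labels do not say whether a line is 1 clone or a pool, or whether lines were grown separately, so p-values measure only the spread between these 5 arrays.

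Hox genes sit in 4 clusters, and in each cluster the order of the genes along the chromosome matches the order of their domains from head to tail in the embryo. Genes of the same number in different clusters (a paralog group) are copies of one ancestral gene. Polycomb complexes keep clusters silent through methylation of histone H3 lysine 27, and retinoic acid, Cdx factors and Trithorax-type proteins open them. KDM7, encoded by Kdm7a, removes methyl groups from histone H3 lysines 9 and 27, and the study asked what its loss does to gene expression.

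The target and the identity of the cells were checked first. Kdm7a probe set 1456150_at had a signal of 487 in parental, 611 in empty-vector and 665 in EGFP-knockdown cells and of 130 and 136 in KDM7 knockdown lines 1 and 2, so the groups did not overlap. Its log2 difference of -2.13, knockdown minus control, did not pass the test used below (adjusted p = 0.722 in limma). By its brightest probe set, 1435867_at, Kdm7a had 660, 648 and 872 in the control lines and 231 and 143 in the knockdown lines, also without overlap. Of its other probe sets, 1459821_x_at, of low signal (mean 8.16), overlapped and the rest did not. Of the sympathetic neuroblastoma markers, 9 of the 12 genes with a probe set lay at or above the median signal of the array, with Hand2, Phox2a, Stmn2 and Chgb among them, while Th, Nefl and Nefm were below it. Their 15 tested probe sets included none past the adjusted threshold and 3 of 15 at an unadjusted p under 0.05 in limma, where 5.56% of all tested lay (6 of 15 with trend and robust, against 4.96%). As log2 differences, knockdown minus control, the 3 were Gata3 at -1.68 (SE 0.51), Isl1 at -1.62 (SE 0.58) and Chgb at 0.58 (SE 0.18). Gata3 had a signal of 554, 224 and 585 in parental, empty-vector and EGFP-knockdown cells and of 178 and 95.3 in knockdown lines 1 and 2. Isl1 had 1493, 545 and 1998 against 316 and 466, so in both the empty vector line was the control nearest to the knockdown lines. Of the 15 probe sets, 4 lay below and 1 above all controls, against 10.2% and 12.6% of all tested. Markers of other cells were below that median for 6 of 7 mesenchymal, 2 of 2 glial and 3 of 3 blood genes, and Col1a2, the 1 that could be tested, did not pass the test used below. The summed signal, over each gene's brightest probe set, was 123 to 148 in the control and 111 to 148 in the knockdown lines for the mesenchymal list, 23.7 to 69.7 and 43.1 to 77.7 for the glial list, and 29.6 to 89.8 and 62.7 to 66.1 for the blood list. The part of such cells in the Hox values was not tested.

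Most Hox genes were dim in Neuro2A, and those that were not came mainly from HoxC. A probe set was called bright where its mean log2 signal over the 5 lines reached the 75th percentile of all probe sets (a signal of 396), middle from the median (40.5) up to there, and dim below the median. By these limits 2 Hox probe sets were bright, 7 middle and 39 dim, so 18.8% lay at or above the median, where 50% of all probe sets lie, and 2 of 48 were bright, against 25% of all. HoxC held 7 of the 9, HoxA the other 2, and HoxB (11 probe sets) and HoxD (10) held 0. By gene, 5 of 7 HoxC genes and 2 of 9 HoxA genes had a probe set at or above the median, against 0 of 9 for HoxB and 0 of 8 for HoxD. Probe sets differ in affinity, so these classes describe each probe set and put the mRNAs of different genes in no order.

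**Figure D1:**
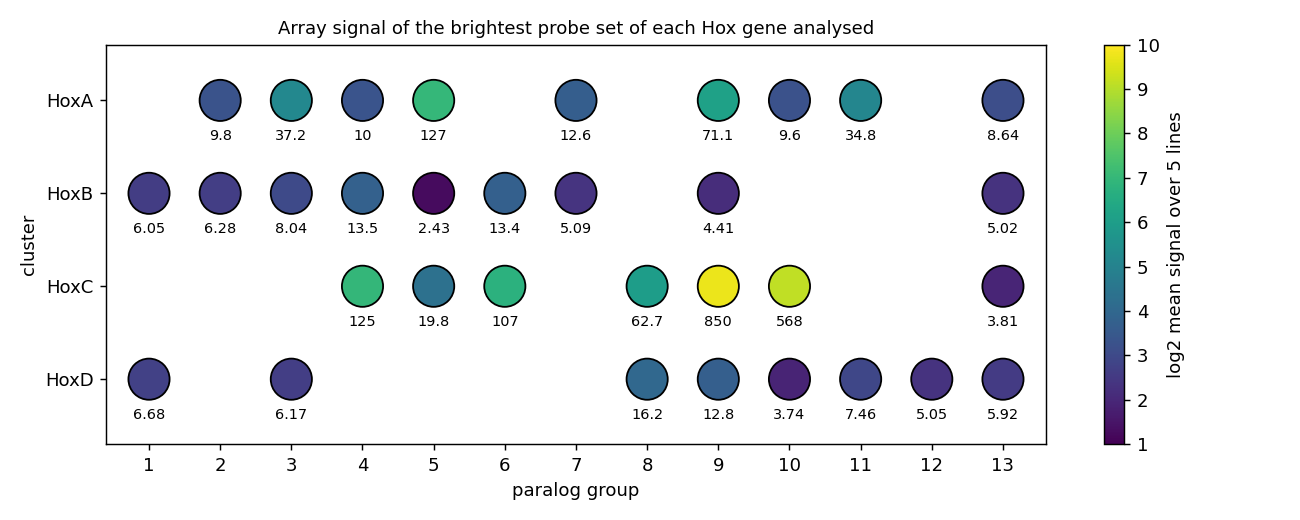
Each circle is a Hox gene, by cluster (rows) and paralog group (columns), coloured and numbered by the mean signal of its brightest probe set over the 5 lines. In HoxC the values are 125 at Hoxc4, 19.8 at the dim Hoxc5, 107 at Hoxc6, 62.7 at Hoxc8, 850 at Hoxc9, 568 at Hoxc10 and 3.81 at Hoxc13. Every HoxB and HoxD gene on the map is at 16.2 or less.

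Along HoxC the genes at or above the median were Hoxc4, Hoxc6, Hoxc8, Hoxc9 and Hoxc10. The 2 HoxC genes below it were Hoxc5, which lies between Hoxc4 and Hoxc6 in the cluster, and Hoxc13 at the posterior end, with a mean signal of 3.81. In HoxA the 2 genes were Hoxa5 and Hoxa9, with the dim Hoxa7 (12.6) between them. Grouped by position over all clusters, 1 of 16 anterior probe sets (paralog groups 1 to 4), 5 of 15 central (5 to 8) and 3 of 17 posterior (9 to 13) reached the median. HoxC held the 1 anterior, 4 of the 5 central (3 of them for the single gene Hoxc6) and 2 of the 3 posterior ones. No order along the body axis ran through all clusters, since the central and posterior genes of HoxB and HoxD were dim as well.

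Promoter sequences show which letters lie in front of genes that were above the median and of dim paralogs. RefSeq promoters (250 bases before to 50 after a start, GRCm38.p6) were found for 19 of the 33 genes, of which Hoxc4, Hoxa5 and Hoxa9 were above the median. These 3 are shown with Hoxb4, a dim paralog of Hoxc4, and Hoxd9, a dim paralog of Hoxa9, with each CpG in capitals, since Polycomb complexes are known to bind CpG-rich DNA. The entries lie at chr15:103034145-103034444 (plus strand) for Hoxc4, chr11:96318017-96318316 (plus) for Hoxb4, chr6:52204538-52204837 (minus) for Hoxa5, chr6:52227321-52227620 (minus) for Hoxa9 and chr2:74697513-74697812 (plus) for Hoxd9.
Hoxc4: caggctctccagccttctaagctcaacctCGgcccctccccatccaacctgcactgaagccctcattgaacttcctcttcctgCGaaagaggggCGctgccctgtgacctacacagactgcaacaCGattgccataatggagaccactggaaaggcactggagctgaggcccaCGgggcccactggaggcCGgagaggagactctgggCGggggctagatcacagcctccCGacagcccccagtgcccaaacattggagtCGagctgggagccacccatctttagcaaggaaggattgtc
Hoxb4: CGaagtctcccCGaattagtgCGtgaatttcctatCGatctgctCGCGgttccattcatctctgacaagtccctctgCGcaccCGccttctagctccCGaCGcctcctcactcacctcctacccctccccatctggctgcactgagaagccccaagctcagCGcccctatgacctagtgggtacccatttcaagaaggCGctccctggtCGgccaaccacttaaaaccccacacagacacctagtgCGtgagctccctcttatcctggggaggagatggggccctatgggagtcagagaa
Hoxa5: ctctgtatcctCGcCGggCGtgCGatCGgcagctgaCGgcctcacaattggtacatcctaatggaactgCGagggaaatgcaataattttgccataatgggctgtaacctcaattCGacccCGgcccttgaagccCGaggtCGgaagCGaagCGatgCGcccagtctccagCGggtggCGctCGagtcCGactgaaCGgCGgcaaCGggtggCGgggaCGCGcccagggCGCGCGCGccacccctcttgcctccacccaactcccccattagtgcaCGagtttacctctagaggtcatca
Hoxa9: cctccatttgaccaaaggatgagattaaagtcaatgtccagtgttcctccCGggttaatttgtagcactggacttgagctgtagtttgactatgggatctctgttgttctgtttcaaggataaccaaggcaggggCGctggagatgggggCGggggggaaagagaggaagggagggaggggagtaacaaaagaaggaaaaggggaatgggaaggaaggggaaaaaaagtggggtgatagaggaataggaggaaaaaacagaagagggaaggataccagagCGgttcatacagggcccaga
Hoxd9: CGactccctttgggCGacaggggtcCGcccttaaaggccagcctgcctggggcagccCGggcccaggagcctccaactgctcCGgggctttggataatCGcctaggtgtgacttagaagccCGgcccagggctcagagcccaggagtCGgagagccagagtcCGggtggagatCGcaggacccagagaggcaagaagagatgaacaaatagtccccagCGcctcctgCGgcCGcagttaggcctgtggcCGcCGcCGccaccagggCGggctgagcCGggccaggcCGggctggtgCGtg

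These promoters held 9 CpG in Hoxc4, 14 in Hoxb4, 29 in Hoxa5, 4 in Hoxa9 and 20 in Hoxd9, where the median of all 32851 promoters was 7. The 3 entries of genes above the median had 49.7% to 61.7% G and C, and the 18 entries of dim Hox genes 45.7% to 81.0%, with 4 to 45 CpG, so the ranges overlapped. The letters TATAAA, on either strand, were in none of the 5 printed windows and in 13.6% of all promoters. GGGCGG, on either strand, was in Hoxc4, Hoxa9 and Hoxd9 and in 35.7% of all promoters. TGATNNAT, the letters of a composite site of Pbx and Hox proteins, was in none of the 5 and in 8.85% of all promoters on either strand. A match or its absence describes these 300 bases only.

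Hoxc9 and Hoxc10, the bright members, lay at the 83.3rd and 79.0th percentile of all probe sets. Hoxc9, which sets thoracic identity of spinal motor neurons, had a signal of 739, 1118 and 968 in parental, empty-vector and EGFP-knockdown cells and of 802 and 691 in KDM7 knockdown lines 1 and 2. The empty vector and EGFP knockdown lines were the highest, and the parental line lay between the knockdown lines, so the groups overlapped. Hoxc10, a gene of the lumbar level, had 692, 633 and 547 in the control lines, in the same order, and 536 and 461 in the knockdown lines. Here the knockdown lines were both under the lowest control, but knockdown line 1 was only 1.02-fold under the EGFP knockdown line, while the controls spanned 1.27-fold. In RNA from whole cultures, a signal from fewer cells and one from less RNA per cell cannot be told apart.

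The 3 middle genes of HoxC are known from the spinal cord at cervical to brachial levels. Hoxc4 1422870_at had a signal of 102, 112 and 162 in parental, empty-vector and EGFP-knockdown cells, and 147 and 110 in knockdown lines 1 and 2. Both knockdown values fell inside the control range. Hoxc8, which takes part in the identity of brachial motor neurons, had 51.3, 47.0 and 70.01 in the control lines and 85.2 and 67.2 in the knockdown lines. Knockdown line 1 was the highest, and line 2 lay under the EGFP knockdown line.

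Hoxc6, a gene of the brachial level, was read by 3 probe sets, all of them middle, with mean signals of 93.6 to 107. By 1427361_at the control lines had 122, 97.4 and 121 in the order above, and knockdown lines 1 and 2 had 126 and 75.9, the highest and the lowest of the 5. Probe set 1427454_at gave 88.7, 108 and 78.9 in the control lines and 93.9 and 100 in the knockdown lines, all inside the control range. 1427362_x_at gave 143, 71.2 and 120 against 93.3 and 79.0, also inside the control range. Thus the low value of line 2 by the first probe set was not seen by the second. By 1427362_x_at line 2 was under the control mean (a log2 difference of -0.44) but above the empty vector line.

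Hoxa5, which patterns the neck and lung, was at 169, 134 and 124 by 1443803_x_at in parental, empty-vector and EGFP-knockdown cells and at 112 and 106 in knockdown lines 1 and 2. Both knockdown signals were under all control signals, 1.11-fold under the nearest, while the controls spanned 1.37-fold. The other probe set of Hoxa5, 1448926_at, was dim in every line, at 1.78 to 17.1, and in the Affymetrix naming the ending _x_at marks probes that can match other sequences too. The Hoxa5 values thus rest on 1 probe set of this kind. Hoxa9, known from blood stem cells and leukaemia, had 86.2, 63.4 and 58.1 in the control lines and 65.4 and 87.5 in the knockdown lines by 1421579_at, with the groups overlapping. Its other probe set, 1455626_at, was dim in all lines, at 2.22 to 5.47. Of 11 Hox genes with several probe sets, Hoxa5 and Hoxa9 were the 2 split between dim and not dim, 8 were dim by all and Hoxc6 was above the median by all.

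**Figure D2:**
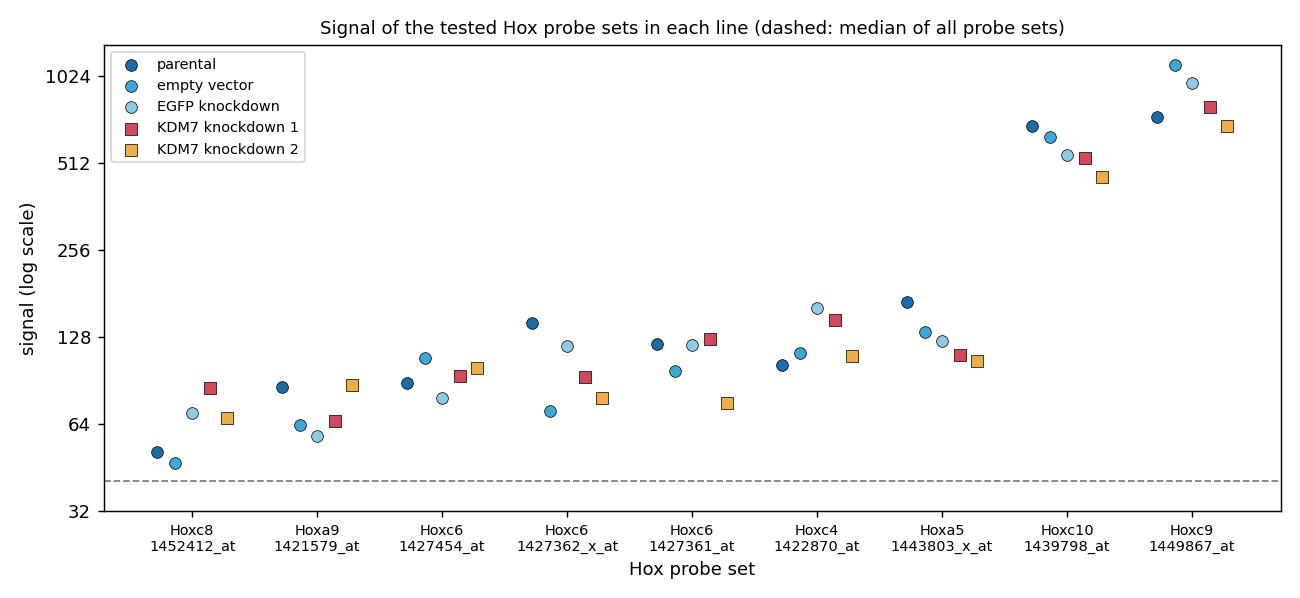
The points are the signals (log scale) of the 9 Hox probe sets at or above the median, with circles for the 3 control lines and squares for the 2 KDM7 knockdown lines. The squares lie below all circles for Hoxc10 and Hoxa5 and inside or across the circles for the other 7 probe sets.

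None of the 9 probe sets passed the test of KDM7 knockdown against control. In limma (lmFit and eBayes over all 22519 probe sets at or above the median, with Benjamini-Hochberg adjustment), 0 of 9 had an adjusted p under 0.05, where the background was 0% of all tested, and 0 of 9 had an unadjusted p under 0.05, where it was 5.56%. With the trend and robust options of eBayes the count was also 0 by either p, with a background of 0.00888% and 4.96%. Without these options the smallest adjusted p of all tested was 0.722 in limma, that of Kdm7a 1456150_at. A 4.38-fold fall of the target was thus not called either, and a count of 0 does not show that the Hox genes were unchanged. Differences below are log2 values, knockdown minus control, with the standard error (SE) of limma. Hoxc9 had 941 ± 191 (SD, n = 3) in the control and 747 ± 78.7 (SD, n = 2) in the knockdown lines, a difference of -0.32 (SE 0.22, 95% interval -0.87 to 0.23, adjusted p = 0.904 in limma). Hoxc10 had 624 ± 72.9 (SD, n = 3) and 499 ± 53.4 (SD, n = 2), a difference of -0.32 (SE 0.17, interval -0.75 to 0.11, adjusted p = 0.885 in limma). Hoxa5 1443803_x_at had 142 ± 23.9 (SD, n = 3) and 109 ± 3.70 (SD, n = 2), a difference of -0.37 (SE 0.18, interval -0.84 to 0.087, adjusted p = 0.879 in limma).

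Hoxc8 had the largest difference upward, 0.45 (SE 0.23, interval -0.13 to 1.03, adjusted p = 0.882 in limma), with 56.1 ± 12.2 (SD, n = 3) in the control and 76.2 ± 12.7 (SD, n = 2) in the knockdown lines. For the other 5 probe sets the differences were 0.051 for Hoxc4, 0.15 for Hoxa9, and -0.20, -0.32 and 0.091 for Hoxc6 by 1427361_at, 1427362_x_at and 1427454_at, with SE from 0.18 to 0.32 and adjusted p from 0.934 to 0.987 in limma. The widest interval among the 9, that of Hoxc6 1427362_x_at, ran from -1.13 to 0.49, and that of Hoxc8 reached 1.03. Changes of 2-fold could thus not be told from none for Hoxc6 1427362_x_at and Hoxc8. The intervals of the other probe sets among the 9 lay between -0.87 (Hoxc9) and 0.75 (Hoxa9). The difference by 1427362_x_at moved to -0.10 when the parental line was left out and to -0.61 when the empty vector line was. The signs of Hoxc4, Hoxa9 and of Hoxc6 by 1427361_at and 1427454_at turned in at least 1 alternative setting.

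**Figure D3:**
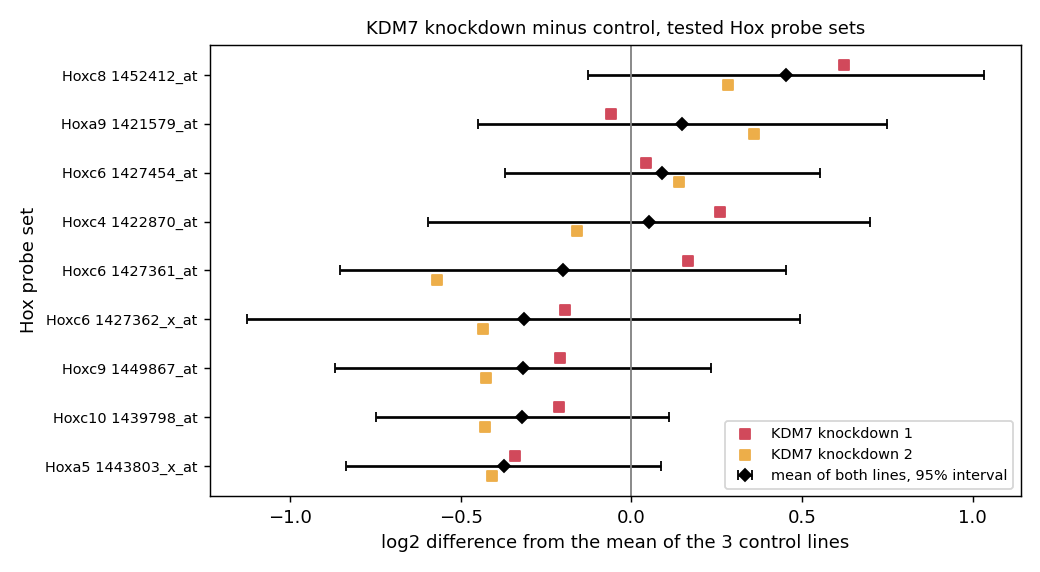
Diamonds are the log2 difference of the mean of both KDM7 knockdown lines from the mean of the 3 control lines, with the 95% interval from limma, and squares are each knockdown line alone, for the 9 tested Hox probe sets. All 9 intervals cross 0, and the differences run from -0.37 for Hoxa5 to 0.45 for Hoxc8.

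By counts, 5 of the 9 probe sets were lower and 4 higher in the knockdown mean, where 45.2% of all tested were lower. Median centring of the arrays moved all probe sets down by the same amount, and then 7 of 9, with Hoxc4 and Hoxc6 1427454_at added, and 63.9% of all tested were lower. Knockdown signals were both under the lowest control for 2, Hoxc10 and Hoxa5, against a background of 10.2%, and above for 0, against 12.6%. With a line left out, the shares over all tested were larger, as were some of these counts. Without knockdown line 1 there were 4 of 9 below and 1 above, against 20.9% and 24.4% of all tested. Without line 2 there were 2 above, against 23.5%, and 1 lay above after any of the control lines was left out, against 18.5% to 23.4%. The median difference over the 9 was -0.20, against 0.029 over all tested. It was -0.41 without knockdown line 1 and -0.060 without knockdown line 2, and without the parental line, in which Hoxc10 and Hoxa5 had their highest signals, it was -0.10. Without the probe sets ending in _x_at, left out after the values were seen, it was 0.051, and 1 of the remaining 7 lay below.

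None of the 9 passed in a comparison of the knockdown lines with each other. A limma model with 3 groups, which takes a single line to have the spread of the controls, called 0 of 9 for line 2 against line 1, with a background of 0%. At an unadjusted p under 0.05 there were also 0, where the background was 2.52%. With trend and robust there were 0 by either p, with a background of 0.00444% adjusted and 1.51% unadjusted. Hoxc6 1427361_at had the largest difference, -0.74 for line 2 minus line 1 (SE 0.31). Against the controls it was 0.17 in line 1 and -0.57 in line 2 (SE 0.25 each). Hoxc9 had -0.21 in line 1 and -0.43 in line 2 against the controls (SE 0.31 each). Hoxc10 had -0.21 and -0.43 as well (SE 0.25 each). For line 1 against control and line 2 against control 0 of 9 passed as well, with a background of 0% each, and 0 had an unadjusted p under 0.05, with a background of 3.01% and 3.62%. With trend and robust 0 of 9 passed in either comparison, with a background of 0% for line 1 and 0.00444% for line 2 by adjusted p and of 1.99% and 2.77% by unadjusted p. These comparisons share their control lines.

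Across the 5 lines without regard to arm, few of the 9 probe sets spanned a wide range. The highest line was at least 2-fold over the lowest for 1 of 9, Hoxc6 1427362_x_at at 2.01-fold, where 21.2% of all tested reached that. Fold ranges of the other 8 were 1.37 to 1.81. Knockdown line 2 was the lowest line for 4 of 9, against 15.9% of all tested, and the parental line was the highest for 3 of 9, against 23%. The parental line was the lowest line for 1 of 9, against 31.5%.

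The dim members had low signals with a wide range across the lines, as had dim probe sets at large, and they were not tested. Over 39 probe sets and 5 lines their signals ran from 0.534 to 63.4, with a median of 7.78. Of their 195 values 5 were above 40.5, against 8843 of 112590 over all dim probe sets. The 5 lay in different probe sets, namely Hoxa3 1431392_at and 1452421_at and Hoxd9 1419126_at in the empty vector line, Hoxd11 in the EGFP knockdown line and Hoxa11 in knockdown line 1. The median SD of log2 signal over the 5 lines was 1.26 for these 39, against 1.18 for all dim probe sets, and 0.29 for the 9 above the median, against 0.24 for all tested. At least 2-fold between the highest and the lowest line was reached by 37 of the 39, and by 21176 of all 22518 dim probe sets.

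**Figure D4:**
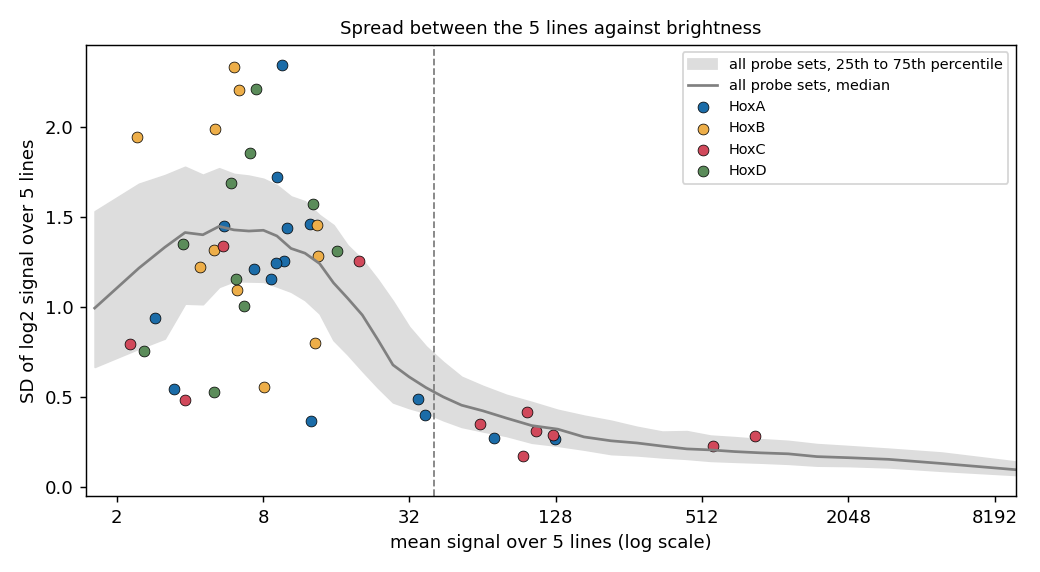
Points are the 48 Hox probe sets by mean signal (log scale) and the SD of their log2 signal over the 5 lines, coloured by cluster, over the median (line) and the 25th to 75th percentile (band) of all probe sets. Spread is smaller among brighter probe sets, with a median SD of 1.26 for the 39 dim Hox probe sets left of the dashed line (a signal of 40.5) and 0.29 for the 9 right of it.

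Among dim genes, by each gene's brightest probe set, the highest were Hoxa3 (37.2), Hoxa11 (34.8), Hoxc5 (19.8), Hoxd8 (16.2) and Hoxb4 (13.5). Nearest below the median was Hoxa3 1431392_at, with 32.01, 59.4 and 32.3 in the control lines and 30.2 and 38.4 in the knockdown lines, and nearest above it was Hoxc8, at a mean of 62.7. Hoxa11, a gene of limb and uterus, had 30.2, 30.6 and 31.3 in the control lines, and 63.4 and 27.9 in knockdown lines 1 and 2, so line 1 alone was high. Hoxc5 was dim by all 3 probe sets, and by the brightest, 1439885_at, it had 36.4, 28.9 and 25.7 in the control lines and 4.27 and 26.5 in the knockdown lines. The lowest dim genes were Hoxb5 (2.43), Hoxd10 (3.74), Hoxc13 (3.81), Hoxb9 (4.41) and Hoxb13 (5.02). In Hoxb5 the empty vector line stood alone at 25.1, with 0.971 to 2.32 in the other lines. Single high values of this kind were also seen in Hoxd10 (18.8 in the empty vector line), Hoxb9 (17.3) and Hoxb13 (22.8), both in the EGFP knockdown line.

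HoxB, whose anterior genes respond to retinoic acid, had mean signals of 2.43 to 13.5 over its 11 probe sets, and HoxD 2.60 to 16.2 over its 10. The genes that flank the dim HoxD cluster were not dim. Mtx2, a mitochondrial outer membrane gene on the anterior side, had a signal of 3490 to 4146 in the control lines and of 3864 and 3923 in the knockdown lines. Lnpk, an endoplasmic reticulum protein gene beyond the posterior end, had 1589 to 1890 and 1756 and 1763 by 1453035_at. Evx2, the homeobox gene next to Hoxd13, was middle, at 49.5, 51.3 and 42.9 in the control lines and 78.2 and 62.3 in the knockdown lines, with both knockdown lines above all controls. Its difference was 0.55 (SE 0.18, adjusted p = 0.879 in limma), which did not pass. Calcoco1, which lies beyond HoxC, had 0.53 (SE 0.23) at 44.3 ± 8.55 (SD, n = 3) and 63.5 ± 11.6 (SD, n = 2). Hibadh beyond HoxA had 1603 ± 186 (SD, n = 3) and 1589 ± 126 (SD, n = 2). Evx1, Skap2, Skap1 and Ttll6, at the ends of HoxA and HoxB, were dim. Over the list of genes at cluster ends, 0 of 8 tested probe sets passed limma in either direction, with a background of 0%, and 1 of 8 had an unadjusted p under 0.05, against 5.56% (0 and 0 with trend and robust). Of these, 2 of 8 lay above and 0 below all controls, against 12.6% and 10.2% of all tested.

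The proteins that bind DNA together with Hox factors, the TALE homeodomain proteins of the Pbx, Meis and Pknox families, were mostly measurable. Of 9 listed genes 8 had a probe set, and 6 of these (15 probe sets) were tested, with 0 higher and 0 lower past the limma threshold and 3 of 15 at an unadjusted p under 0.05, against 5.56% of all tested. With trend and robust these counts were 0 and 3, against 4.96% for the latter. The 3 were probe sets of Meis1, Pbx2 and Meis2. Meis1 1450992_a_at had a signal of 319, 221 and 306 in parental, empty-vector and EGFP-knockdown cells and of 95.9 and 132 in knockdown lines 1 and 2, without overlap, a difference of -1.31 (SE 0.24) that did not pass (adjusted p = 0.879 in limma). Its 2 other probe sets were dim, and by 1459423_at it had 40.9, 44.1 and 45.0 in the control lines and 30.8 and 37.3 in the knockdown lines, again without overlap, while by 1443260_at the groups overlapped. Pbx2 had -0.048 (SE 0.17) by 1418893_at, while its 1418894_s_at had 1114, 964 and 903 in the control lines and 781 and 684 in the knockdown lines, without overlap. The remaining Pbx2 probe set, 1449261_at, overlapped. Meis2 1440091_at had 74.7, 74.5 and 131 in the control lines and 150 and 176 in the knockdown lines, without overlap and with the opposite sign, a difference of 0.85 (SE 0.30, adjusted p = 0.879 in limma). By its brightest probe set, 1457632_s_at, Meis2 had -0.045 (SE 0.18) with overlap. Pbx3 had 0.28 (SE 0.48) and Pknox1 0.19 (SE 0.17). Of the 15 tested probe sets, 2 lay below and 1 above all controls, against 10.2% and 12.6% of all tested. The median difference over the 15 was 0.0033, against 0.029 over all tested.

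Of 15 genes listed as upstream of the clusters, 14 had a probe set, and 8 (12 probe sets) were tested, with 0 past the limma threshold in either direction and 2 of 12 at an unadjusted p under 0.05, those of Rxra and Kat6a, against 5.56% of all tested. With trend and robust they were 0 and 2, against 4.96% for the latter. Cdx1, Cdx2 and Cdx4, which open posterior Hox genes in the embryo, were dim, as were Gbx2, Rarb and Rxrg. Rxra, a partner of retinoic acid receptors, had 204, 168 and 129 in the control lines and 249 and 278 in the knockdown lines, a difference of 0.68 (SE 0.23, adjusted p = 0.879 in limma). Among the receptors, Rarg had 0.41 (SE 0.57) and Rara -0.25 (SE 0.41), and Egr2, which drives hindbrain Hox genes, had -0.57 (SE 0.48). Egr2 was highest of the 5 lines in knockdown line 1 (71.9) and lowest in line 2 (23.2), so that against the controls line 1 alone had 0.25 and line 2 alone -1.38. Kat6a, a histone acetyltransferase that acts on Hox genes, had 105, 102 and 99.6 in the control lines and 57.9 and 71.9 in the knockdown lines by 1437487_at, without overlap, a difference of -0.67 (SE 0.16, adjusted p = 0.879 in limma), while its brightest probe set, 1436315_at, had 0.046 (SE 0.14). Of the 12 tested probe sets, 1 lay below and 1 above all controls, against 10.2% and 12.6% of all tested. The median difference over the 12 was -0.0055.

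Polycomb proteins and the H3 lysine 27 demethylases had 16 of 17 listed genes on the array, all tested, by 31 probe sets. None of the 31 passed in either direction, with a background of 0% of all tested. At an unadjusted p under 0.05 there were 0 in limma, against 5.56% of all tested, and 0 with trend and robust, against 4.96%. Both knockdown lines lay below all controls for 5 of 31 and above for 1, against 10.2% and 12.6% of all tested. Bmi1, a subunit of Polycomb repressive complexes, had 6358 ± 942 (SD, n = 3) and 5110 ± 103 (SD, n = 2), a difference of -0.30 (SE 0.18), and Kdm6a, a demethylase of this lysine, -0.22 (SE 0.24). Ezh1, a methyltransferase, had 0.22 (SE 0.16), and Ring1, a ubiquitin ligase, 0.22 (SE 0.19). The median difference over the 31 was -0.015.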

How the data were processed

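RNA of 5 Neuro2A lines was measured on 1 array each. The deposited values are signal intensities on a linear scale, made with MAS5, per the submitters' processing notes. No MAS5 version is stated in those notes. After cutting 2% at either end, the mean was 500.0 on every array, so the authors' values were already scaled to a common level. The number of arrays limits the precision.

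Of 45101 probe sets, 64 controls were left out. Signals were taken to log2 with no offset, probe sets at or above the median of the mean log2 signal (22519) were tested, and symbols came from the platform annotation, which gave 34945 probe sets 1 symbol, 932 several and 9160 none. The test was limma 3.58.1 in R 4.3.3 with 2 knockdown against 3 control lines (3 residual and 2.48 prior degrees of freedom), checked on simulated data; the prior degrees of freedom were 2.84 with 3 groups.

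Named genes were all Hox genes with a probe set at or above the median, the 5 highest and 5 lowest dim ones, and the 2 largest differences each way in each pathway list, by each gene's brightest probe set. Mtx2, Lnpk, Stmn2 and Kat6a, further probe sets of Pbx2, Meis1 and Meis2, and single high dim values, were chosen after their values were seen. Members and lists were chosen with earlier results of these data known. Alternatives were quantile normalization, median centring, no brightness filter or one at the 70th percentile, 32 added to each signal, trend and robust, 1 probe set per gene and leaving out each line; leaving out probe sets ending in _x_at was added after seeing the data.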

Additional observations from a re-analysis of the deposited data

How the results depend on the processing

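The brightness classes held their counts, within 1.5 times, in each alternative that recomputes them. In every alternative run 0 Hox probe sets passed limma for knockdown against control and, where that could be fitted, for line 2 against line 1. The median log2 difference over the tested Hox probe sets moved to -0.32 if probe sets under the 70th percentile were left out, which leaves Hoxc9 and Hoxc10, and to 0.051 without probe sets ending in _x_at; leaving out each line gave -0.41 to -0.060. Probe sets below all controls numbered 6 of 48 (and 1 above) unfiltered, against 8.97% (and 12.5%) of all probe sets. There were 1 of 2 below at the 70th percentile, against 11.1%, and 3 of 9 after median centring, against 17.7%. Without those ending in _x_at 1 of 7 lay below, against 10.2% of all tested in the main setting. When each line was left out 2 to 4 of 9 lay below, against 16.6% to 20.9%, with 1 to 2 above, against 18.5% to 24.4%. Median centring moved all probe sets by -0.11, Hox members included. It turned Hoxc4 to -0.059 and Hoxc6 1427454_at to -0.019. With each line left out, Hoxc4 ran from -0.16 to 0.26 (negative without the parental line, at -0.081, the empty vector line, at -0.014, or knockdown line 1), Hoxa9 from -0.060 (without knockdown line 2) to 0.36, Hoxc6 1427361_at from -0.57 to 0.17 (without knockdown line 2) and Hoxc6 1427454_at from -0.014 (without the EGFP knockdown line) to 0.22. The cause was not tested. No paired analysis was possible because the labels give no pairs of a control and a knockdown line. With no detection calls used, signals of dim probe sets were not shown to be above background.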

Other observations

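Probe sets that name Hox genes outside the selection were dim too. The 5 for antisense transcripts of Hox clusters, named Hoxa11os, Hoxb5os and Hoxd3os1, had mean signals of 1.16 to 15.8, and the 3 assigned to a pair of neighbouring genes (Hoxd4 with Hoxd3, and Hoxb8 with Hoxb7) had 2.27 to 19.1. By 1452400_a_at, Hoxa11os had 1.36, 1.28 and 19.6 in parental, empty-vector and EGFP-knockdown cells and 27.3 and 30.2 in knockdown lines 1 and 2, above all controls, while its other probe set, 1457646_at, was at 0.406 to 2.88 with overlap. Hoxd3os1 1460056_at also lay above all controls (1.13 to 2.51 in the control lines, 14.6 and 2.63 in the knockdown lines), with line 2 only just over the parental line. Its other probe set, 1430263_at, overlapped, with 1.90, 2.42 and 21.9 in the control lines and 16.5 and 18.3 in the knockdown lines. Below all controls were Hoxb5os 1447886_at (17.3 to 26.7 against 13.4 and 6.64) and 1452493_s_at of Hoxb8 with Hoxb7 (5.60 to 23.1 against 2.85 and 2.93). Over all probe sets with no brightness filter, 12.5% lay above all controls and 8.97% below.

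With no brightness filter, the probe sets with both knockdown lines below all controls included, besides Hoxc10 and Hoxa5, those of Hoxa4 (1420226_x_at), Hoxc5 (1450832_at), Hoxd9 and Hoxd10, and the 1 above was Hoxd8 1433638_s_at. These are 6 of 48 below and 1 above, where 8.97% of all probe sets lay below and 12.5% above. All 5 of these have mean signals below the median of the array. Hoxd9, for example, had 11.4, 42.03 and 30.1 in the control lines and 2.66 and 8.96 in the knockdown lines. Hoxa4 1420226_x_at had 14.1 in knockdown line 2 against 14.2 in the EGFP knockdown line, the lowest control. By the other probe sets of Hoxa4, Hoxc5 and Hoxd8 the groups overlapped.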
